A study of Mus musculus with 24 samples.

Results

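The genes described are Mup3, Mup4, Mup5, Mup20 and Mup21, members of the mouse major urinary protein family. They were chosen by gene name: every non-control probe of the array whose name in the scanner file is one of these 5 symbols was taken, which gave 9 probes for 5 genes among 56605 probes for 37074 gene names. Mup3 has 3 probes, Mup20 and Mup21 have 2 each, and Mup4 and Mup5 have 1 each. RNA came from livers of C57BL/6J mice and was hybridised with Cy3 dye to 24 single-colour Agilent mouse arrays. The labels give 4 groups of 6: male on the pesticide diet, male on the control diet, female on the pesticide diet and female on the control diet. The pesticide diet carried a mixture dosed at acceptable daily intakes, whose agents the labels do not name, and both diets were fed for 52 weeks to mice labelled as 68 weeks old. The arrays lie on 3 slides of 8, each with 2 arrays of every group. The labels give no animal numbers, so p-values measure only the spread between these samples.

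Major urinary proteins are small lipocalins, beta-barrel proteins that carry volatile pheromones in a central pocket. Mouse hepatocytes secrete them into the blood, the kidney filters them, and mice excrete them in urine, where they act as scent marks. Liver transcription of the family is known to be higher in males and to depend on the male pulses of growth hormone acting through JAK2 and STAT5B, with androgen, thyroid hormone and glucocorticoid also needed. Many family members are near-identical copies in a central block of the cluster on chromosome 4, while the 5 genes here belong to its more divergent members.

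Sex-linked transcripts went against the sex label of 12 of the 24 arrays, and every comparison below therefore uses the word labelled. Xist, the RNA that silences the second X chromosome in female cells, exceeded background on all 12 arrays labelled pesticide and on 0 of the 12 labelled control. Eif2s3y, a Y-linked gene, exceeded it on 0 of the 12 arrays labelled pesticide and on all 12 labelled control. The arrays at odds with their label were the 6 labelled male pesticide and the 6 labelled female control, while the 6 labelled female pesticide and the 6 labelled male control followed it. In these data the labelled diet and the sex-linked state cannot be told apart. One array stood apart: labelled female pesticide replicate 3 had 39032 probes well above background and a median spot signal of 109, while the other 23 arrays had 29935 to 33393 such probes and median signals of 63 to 81. Without it, 8 of the 9 probes were still lower in labelled females, and results that rest on it are given both ways.

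The sequences of 3 probes are shown first because family members are so alike in sequence, 2 of them beside a family probe with few mismatches. The Mup5 probe A_52_P412506 (mm9, chr4:61496097-61496156, minus strand) begins at the codon shown in capitals, the ATG of the start codon.
Mup5 A_52_P412506: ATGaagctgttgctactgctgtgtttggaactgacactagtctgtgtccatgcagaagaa
The Mup20 probe A_55_P2051486 (mm9, chr4:61713671-61713730, minus strand) could be laid without gaps over the whole length of a probe for Mup pseudogene 21 (A_55_P2103703, chr4:61691724-61691783), with 6 mismatches in 60 bases, in capitals.
Mup20 A_55_P2051486: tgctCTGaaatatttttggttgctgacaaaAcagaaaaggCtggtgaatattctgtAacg
Mup pseudogene 21 A_55_P2103703: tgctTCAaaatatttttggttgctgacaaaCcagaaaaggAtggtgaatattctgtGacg
The Mup3 probe A_55_P1971237 (mm9, chr4:61745794-61745853, minus strand) matched a probe for Mup pseudogene 12 (A_55_P2113587) with 8 mismatches in 60 bases, in capitals. A probe for Mup pseudogene 7 (A_55_P2033326) had as few, 8 in 60.
Mup3 A_55_P1971237: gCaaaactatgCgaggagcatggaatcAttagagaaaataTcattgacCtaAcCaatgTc
Mup pseudogene 12 A_55_P2113587: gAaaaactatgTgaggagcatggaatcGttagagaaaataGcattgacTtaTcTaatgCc

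For 5 of the other probes the positions are as follows. On mm9 and on the minus strand of chromosome 4, Mup20 A_55_P2063654 covers bases 61711407 to 61711466 and starts at base 688 of its transcript. Mup21 A_55_P2025343 covers 61808866 to 61808925 and starts at base 695. Mup4 A_51_P266883 covers 59969824 to 59969883 and starts at base 669. Mup3 A_52_P232508 is placed at 61744500 to 61744548 and starts at base 831. Mup3 A_66_P133052 covers 61743330 to 61743389 and starts at base 1435 of a clone that the scanner file assigns to Mup3, with no RefSeq transcript listed. The files name 1 gene each for 7 of the 9 probes, 4 genes for Mup21 A_55_P2743972 (Mup21, Mup1, Mup2 and Mup19) and none by RefSeq for A_66_P133052. Without gaps, Mup20 A_55_P2063654 overlapped a Mup pseudogene 16 probe (A_55_P2083233) over 55 bases with 6 mismatches. It overlapped the Mup4 probe over 52 bases with 7 mismatches. The Mup4 probe overlapped the same pseudogene 16 probe over 47 bases with 4 mismatches.

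All 9 probes were well above background on all 24 arrays and entered the test, in which a probe passed at an adjusted p under 0.05 (limma, Benjamini-Hochberg over 32078 probes). In labelled males 8 of the 9 were lower with the labelled pesticide diet, beside 10.7% of all tested probes that were lower and 11.6% that were higher. The same 8 were lower in labelled females, beside 9.44% of all tested probes lower and 8.88% higher. The median log2 fold change of the 9 probes was -1.86 in labelled males and -1.98 in labelled females, beside -0.03 and -0.02 over all tested probes. For each of these 8 probes the 6 labelled pesticide arrays lay wholly below the 6 labelled control arrays in both labelled sexes. How many of all tested probes were separated in this way was not counted, so the separation is a description and cannot be called particular to these probes. The exception was the Mup3 clone probe A_66_P133052, whose groups overlapped.

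**Figure D1:**
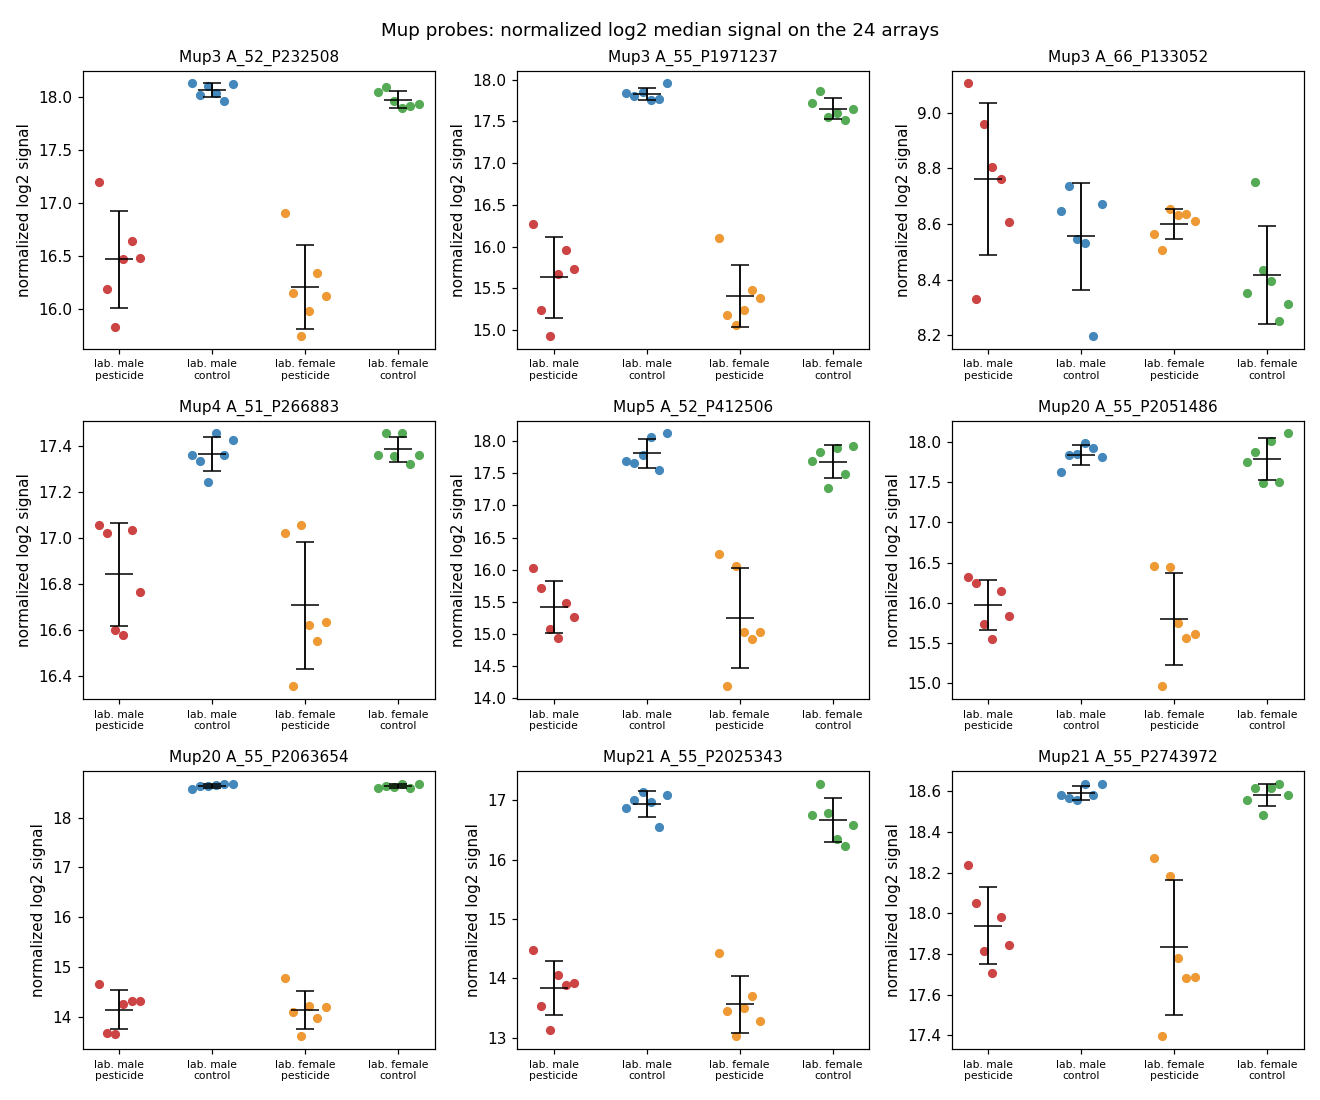
Normalized log2 median signal (y axis, separate scale per panel) of the 9 probes on 24 arrays in 4 labelled groups (x axis); points are arrays, bars the mean and SD over 6 arrays. In 8 panels every labelled pesticide array lies below every labelled control array, while the groups of Mup3 A_66_P133052 overlap.

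Mup20 encodes darcin, the male urinary pheromone that draws females to a scent mark. Its probe A_55_P2063654 had the largest change of the 9. The median spot signal, in scanner units, was 12746 at the lowest, 21647 at the median and 25794 at the highest in labelled male pesticide livers, against 397647, 407111 and 416696 in labelled male control livers. In labelled female pesticide livers it was 13764, 17920 and 30839, against 376964, 398628 and 423333 in labelled female control livers. The groups were far apart, since the gap between the highest labelled pesticide and the lowest labelled control array was 3.91 log2 units in labelled males and 3.81 in labelled females. The normalized log2 signal averaged 14.15 ± 0.40 in labelled male pesticide livers, against 18.64 ± 0.04 in labelled male controls (SD, n = 6 each). Its log2 fold change was -4.49 ± 0.15 in labelled males (SE, limma adjusted p = 3.5e-17) and -4.48 ± 0.15 in labelled females (limma adjusted p = 4.0e-17), a fold of 22.5 and 22.3 lower.

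The second Mup20 probe, A_55_P2051486, fell less. Its signal was 52357, 69486 and 83103 (lowest, median, highest) in labelled male pesticide livers, against 206694, 228532 and 250501 in labelled male control livers. In labelled female pesticide livers it was 28847, 60496 and 98672, against 169157, 224095 and 281051 in labelled female control livers. All labelled pesticide arrays were below all labelled control arrays, and the labelled female pesticide livers spread most (SD 0.57 on the log2 scale, n = 6). The log2 fold change was -1.86 ± 0.19 in labelled males (SE, limma adjusted p = 1.6e-07) and -1.98 ± 0.19 in labelled females (limma adjusted p = 6.5e-08). This is the probe with 90% identity to the pseudogene 21 probe printed above, which itself changed by -3.26 ± 0.29 in labelled males and -3.08 ± 0.29 in labelled females (log2, SE). The pseudogene 21 probe was much dimmer, with a mean normalized log2 signal of 11.17 in labelled male controls, against 17.84 for this Mup20 probe. How far either probe reads the other's transcript was not tested.

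Mup3 is another divergent family member known to be expressed in mouse liver. Its probe A_55_P1971237 had signals of 35306, 58489 and 80936 in labelled male pesticide livers, against 214452, 231309 and 246194 in labelled male control livers. In labelled female pesticide livers the values were 33601, 46160 and 79039, against 176178, 207371 and 227756 in labelled female control livers. No labelled pesticide array reached the lowest labelled control array. The log2 fold change was -2.19 ± 0.17 in labelled males (SE, limma adjusted p = 1.1e-09) and -2.24 ± 0.17 in labelled females (limma adjusted p = 8.9e-10).

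For Mup3 A_52_P232508 the signals were 64953, 99411 and 145535 in labelled male pesticide livers, against 259263, 269021 and 288217 in labelled male control livers. They were 59903, 76559 and 136001 in labelled female pesticide livers, against 235512, 248132 and 281338 in labelled female control livers. The groups again did not overlap, and the fold change was smaller than for the first Mup3 probe, at -1.59 ± 0.17 in labelled males (log2, SE, limma adjusted p = 2.0e-07) and -1.77 ± 0.17 in labelled females (limma adjusted p = 4.3e-08).

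The Mup3 clone probe A_66_P133052 was dim. Its signal was 324, 496 and 570 in labelled male pesticide livers, against 305, 350 and 386 in labelled male control livers. It was 345, 417 and 481 in labelled female pesticide livers, against 282, 322 and 348 in labelled female control livers. The groups overlapped on the normalized scale. The log2 difference was 0.21 (95% interval -0.02 to 0.43, limma adjusted p = 0.18) in labelled males and 0.18 (-0.04 to 0.41, limma adjusted p = 0.25) in labelled females. In the mean of the labelled sexes, where 36.1% of all tested probes passed, its difference of 0.20 ± 0.08 (SE) had a limma adjusted p of 0.049. Leaving out any 1 of 18 arrays raised that p to between 0.051 and 0.09; it stayed under the threshold without replicate 2 of each group and without replicate 6 of either labelled male group. It was higher in that mean, in which the other 8 were lower.

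Mup21 is a further divergent family member whose probes also differed. Probe A_55_P2025343 had signals of 9680, 16646 and 22661 in labelled male pesticide livers, against 100303, 126901 and 148380 in labelled male control livers. In labelled female pesticide livers the signals were 9182, 11885 and 24483, against 75090, 101232 and 145437 in labelled female control livers. The gap between the highest labelled pesticide and the lowest labelled control array was 2.07 log2 units in labelled males and 1.81 in labelled females. The log2 fold change was -3.10 ± 0.21 in both labelled males and labelled females (SE, limma adjusted p = 1.2e-10 in each), 8.58-fold lower in labelled males and 8.59-fold in labelled females.

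Probe A_55_P2743972, listed against Mup21, Mup1, Mup2 and Mup19, had signals of 206131, 256838 and 313235 in labelled male pesticide livers, against 381047, 400904 and 412874 in labelled male control livers. It had 144049, 227372 and 327924 in labelled female pesticide livers, against 355284, 393231 and 408568 in labelled female control livers. The groups lay close together without overlap, with a gap of 0.32 log2 units in labelled males and 0.21 in labelled females. Its log2 fold change was -0.65 ± 0.11 in labelled males (SE, limma adjusted p = 1.6e-04) and -0.75 ± 0.11 in labelled females (limma adjusted p = 3.7e-05). The Mup1 probe A_55_P1979904 changed by -0.73 ± 0.14 and -0.83 ± 0.14.

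Mup5 is known from mouse submaxillary and lachrymal glands as well as liver. Its probe over the start codon had signals of 34151, 46387 and 66342 in labelled male pesticide livers, against 199357, 218721 and 287906 in labelled male control livers. In labelled female pesticide livers the signals were 16631, 38251 and 85137, against 142009, 219137 and 258754 in labelled female control livers. The labelled female pesticide arrays had the widest spread of any member in any group on the normalized log2 scale (SD 0.77, n = 6), yet none reached a labelled control array. The log2 fold change was -2.40 ± 0.25 in labelled males (SE, limma adjusted p = 2.1e-07) and -2.44 ± 0.25 in labelled females (limma adjusted p = 1.9e-07).

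Mup4 is known for expression in the nasal and lachrymal glands of the mouse. Its probe had signals of 104218, 122820 and 136860 in labelled male pesticide livers, against 161432, 173895 and 180652 in labelled male control livers. In labelled female pesticide livers the signals were 74110, 110783 and 145901, against 156761, 173399 and 179980 in labelled female control livers. The highest labelled pesticide array and the lowest labelled control array were separated by 0.19 log2 units in labelled males and 0.27 in labelled females. The log2 fold change was -0.52 ± 0.10 in labelled males (SE, limma adjusted p = 9.8e-04) and -0.68 ± 0.10 in labelled females (limma adjusted p = 7.2e-05), the smallest of the 8 that passed.

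**Figure D2:**
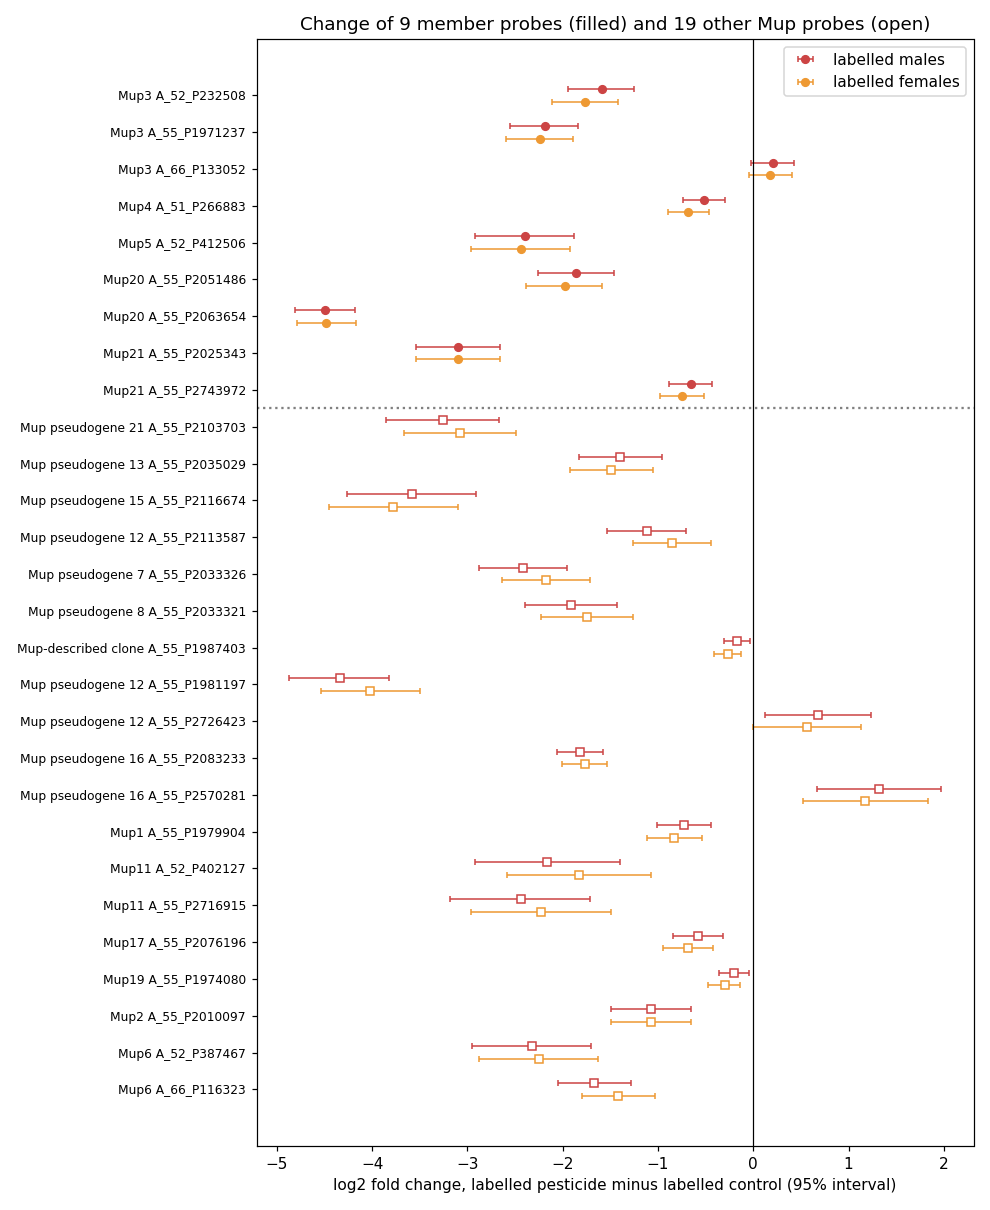
Log2 fold change of labelled pesticide minus labelled control (x axis) with its 95% interval from limma for the 9 probes of the 5 genes (filled) and 19 other Mup probes (open), 1 line per probe, in labelled males (red) and labelled females (orange). The changes of the filled points run between -4.49 and 0.21.

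**Figure D3:**
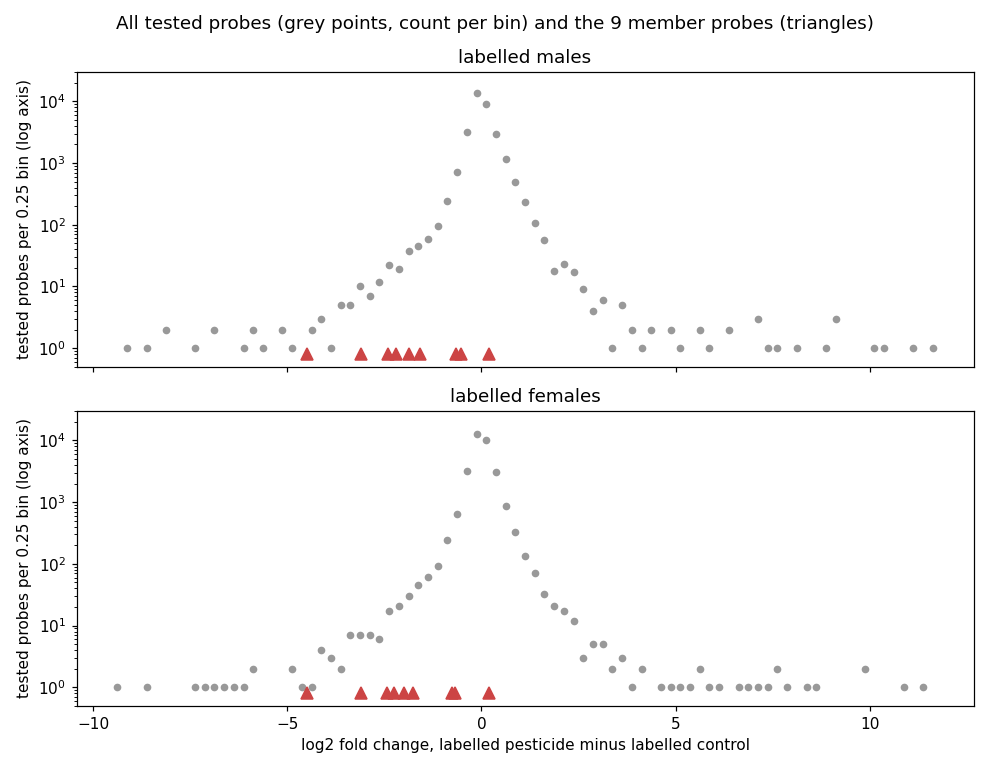
Number of tested probes per bin of log2 fold change (grey points, log y axis) with the 9 member probes as triangles, in labelled males (top) and labelled females (bottom). The Mup20 probe at -4.49 in labelled males lies far out on the low side, and only 15 of 32078 probes were as low or lower.

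No member spot was saturated. The scanner's saturation value was 778604 to 778660, the brightest non-control signal on an array reached 65.7% to 72.0% of it, and 0 pixels were saturated in any member spot. Mup20 A_55_P2063654 stood at 1.64% to 3.31% of saturation in labelled male pesticide livers, against 51.1% to 53.5% in labelled male controls. Mup21 A_55_P2743972 stood at 26.5% to 40.2% in labelled male pesticide livers, against 48.9% to 53.0% in labelled male controls. These 2 probes had a normalized log2 SD of 0.19 to 0.40 per labelled pesticide group, against 0.03 to 0.06 per labelled control group. Whether binding at those signals was still in proportion to the RNA was not tested.

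Within 1 gene the probes changed by different amounts. The log2 difference between 2 probes of a gene was taken on each array and its shift between labelled pesticide and labelled control tested with a two-sided exact permutation test over 924 splits, for 5 probe pairs in 2 labelled sexes, 10 tests chosen after the values were seen. Mup20 A_55_P2063654 fell further than A_55_P2051486 by a log2 difference of -2.63 in labelled males and -2.50 in labelled females. Mup21 A_55_P2025343 fell further than A_55_P2743972 by -2.45 in labelled males and -2.35 in labelled females. Mup3 A_52_P232508 fell less than A_55_P1971237, by 0.60 in labelled males and 0.47 in labelled females. Each of the 10 tests gave an exact p of 0.0022, the smallest that 6 against 6 arrays allow (adjusted over the 10, 0.0022), and in all 10 the arrays of the 2 diets did not overlap. Without labelled female pesticide array 3, which stood apart, the Mup20 difference in labelled females was -2.26, the Mup21 difference -2.17 and the Mup3 difference 0.50 (exact p = 0.0022 each, the smallest of 462 splits). A single fold change therefore cannot be given per gene for Mup3, Mup20 or Mup21. Near-identical family members and the scanner signal differ between the probes of a gene too, and their part in these differences was not tested.

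Within groups, the labelled pesticide arrays differed from each other in 2 patterns, and the 2 probes of Mup20 and of Mup21 fell on different sides. Each array's deviation from its group mean was correlated between probes over the 12 labelled pesticide arrays, as a description. Mup4, Mup5, Mup20 A_55_P2051486 and Mup21 A_55_P2743972 went together, with Pearson r of 0.95 to 0.99 over their 6 pairs. Both brighter Mup3 probes, Mup20 A_55_P2063654 and Mup21 A_55_P2025343 also went together, with r of 0.90 to 0.97. Between the 2 sets r was 0.15 to 0.44. The distance between the sets rests in part on labelled female pesticide array 3, the array that stood apart, where the first set averaged 0.54 above the group mean and the second set was at -0.47. Without it, r over the other 11 arrays was 0.93 to 0.99 within the first set, 0.89 to 0.97 within the second and 0.49 to 0.67 between them. Labelled male pesticide array 2 was split in the same direction, with the first set at 0.21 (range 0.11 to 0.30) and the second at -0.36 (-0.47 to -0.28). Labelled female pesticide array 2 was split the other way, with the first set at -0.67 and the second at -0.11. So was labelled male pesticide array 4, at -0.35 and 0.10.

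Over the 12 labelled control arrays, where r rests on smaller deviations for most members, the sets were not tight. There r was 0.35 to 0.71 within the first set, -0.44 to 0.82 within the second and -0.19 to 0.75 between them. Over all 24 arrays the 19 other Mup probes had a higher median r with the first set than with the second, for 19 of 19, and without labelled female pesticide array 3 for 17 of 19. The Mup3 clone probe had r of 0.01 to 0.13 with the first set and 0.19 to 0.40 with the second over all 24 arrays. The sets were drawn after these values were seen and were not tested, and the probes share arrays, normalization and in part sequence.

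**Figure D4:**
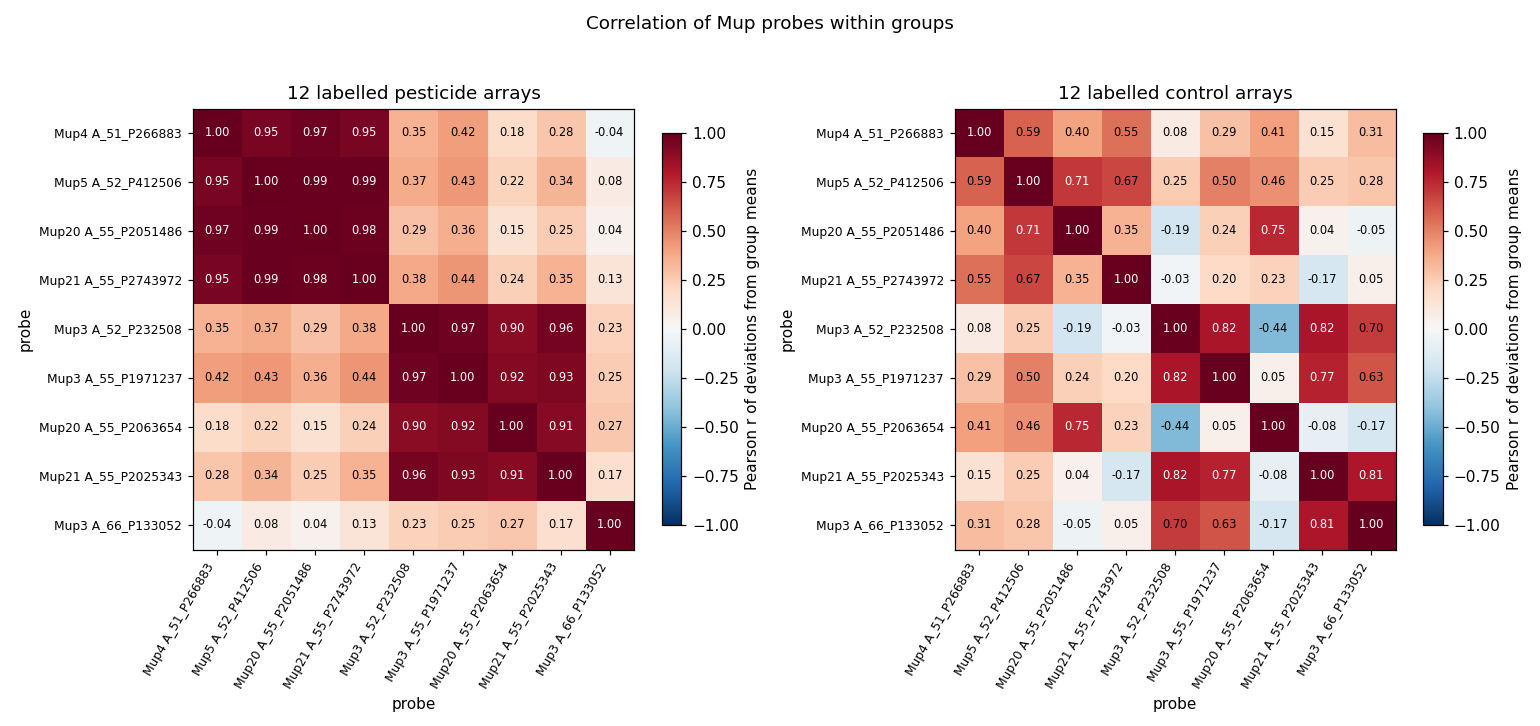
Pearson r between the 9 member probes (both axes) of deviations from the group mean, over 12 labelled pesticide arrays (left) and 12 labelled control arrays (right); colour and number give r. On the left, 2 blocks of 4 probes reach r of 0.90 to 0.99, with 0.15 to 0.44 between them, which was 0.49 to 0.67 without labelled female pesticide array 3.

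**Figure D5:**
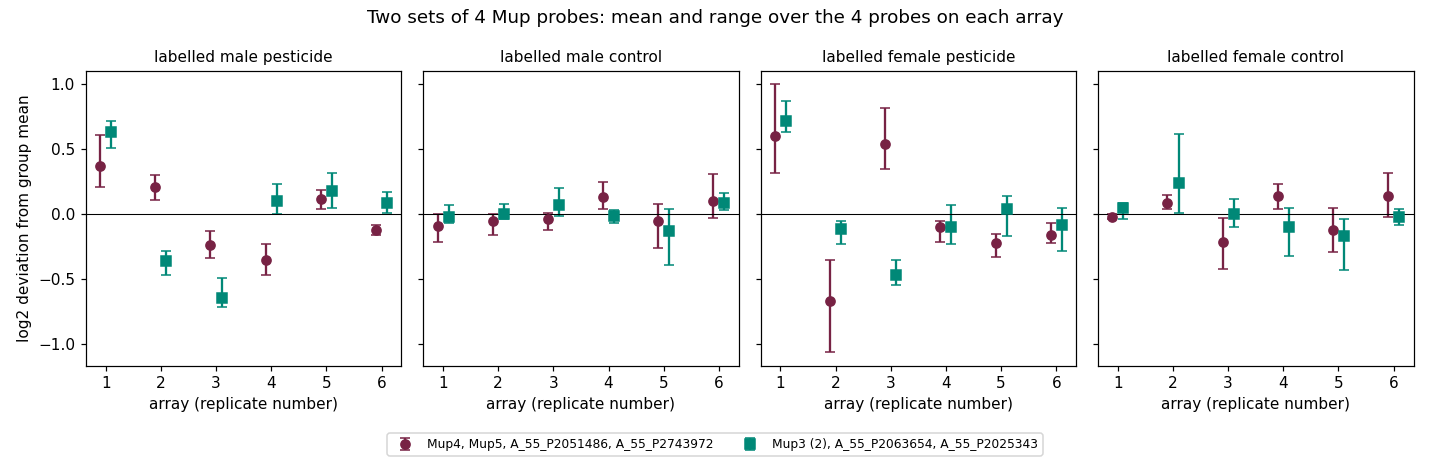
Deviation from the group mean (y axis, log2) on each array (x axis, replicate number) for Mup4, Mup5, Mup20 A_55_P2051486 and Mup21 A_55_P2743972 (circles) and for both brighter Mup3 probes, Mup20 A_55_P2063654 and Mup21 A_55_P2025343 (squares); symbols are the mean of 4 probes and bars their range. On labelled female pesticide array 3, which stood apart in signal, the circle is at 0.54 and the square at -0.47.

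The changes in labelled males and in labelled females were set against each other as an interaction. Of the 9 probes 0 passed, as did 0% of the 32078 tested, with 1265 at an unadjusted p under 0.05 and 0 members among them (limma). The difference between the labelled sexes' changes was between -0.01 and 0.17 log2 units, and its 95% intervals lay within -0.70 to 0.78. The tightest was that of Mup4, 0.16 with an interval of -0.15 to 0.46.

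Labelled male livers were also compared with labelled female livers within each labelled diet. Of the 9 probes 0 passed among labelled pesticide livers and 0 among labelled control livers, each with 0% of all tested probes passing (limma; 1311 and 1792 at an unadjusted p under 0.05, 0 members in either). Male-minus-female differences were between 0.00 and 0.27 log2 units among labelled pesticide livers, with intervals within -0.35 to 0.71. Among labelled control livers they were between -0.02 and 0.27, with intervals within -0.39 to 0.71. The known male excess of Mup transcripts in mouse liver was thus not detected along the sex labels, in livers of which 12 of 24 went against those labels.

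A further comparison took the group means of the 12 arrays that followed their labels. This comparison and the next came from the joint fit of all arrays, so normalization and the estimate of spread still used every array. Labelled female pesticide livers were set against labelled male control livers, so that diet and sex differ together by label as well. There 8 of 9 probes were lower, beside 9.88% of all tested probes lower and 9.96% higher (19.8% in all), and the changes of the 8 lay between -4.49 ± 0.15 for Mup20 A_55_P2063654 and -0.66 ± 0.10 for Mup4 (log2, SE). In the 12 arrays that went against their labels, labelled male pesticide livers against labelled female control livers, the same probe of Mup20 changed by -4.48 and 8 of 9 probes were lower, beside 10.6% of all tested probes lower and 11% higher (21.7% in all). In that comparison the Mup3 clone probe was higher, by 0.35 ± 0.11 (SE, limma adjusted p = 0.024).

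Within slides, each with 2 arrays per group, the 8 lower probes were lower on every slide in both labelled sexes. Mup20 A_55_P2063654 changed by -4.44, -4.68 and -4.36 on the 3 slides in labelled males, and by -4.17, -4.74 and -4.54 in labelled females. Mup4 changed by -0.31, -0.76 and -0.49 in labelled males, and by -0.72, -0.56 and -0.75 in labelled females. The Mup3 clone probe was close to 0 on slide 1 in both labelled sexes, at 0.03 and -0.02.

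Among the 19 other probes of the family, 15 were lower and 1 higher in labelled males, and 17 were lower and 1 higher in labelled females. The shares of all tested probes were 10.7% lower and 11.6% higher in labelled males, and 9.44% and 8.88% in labelled females. Their median log2 fold change was -1.67 in labelled males and -1.49 in labelled females. The probe that was higher in both is one of 2 for Mup pseudogene 16, A_55_P2570281, at 1.32 ± 0.32 and 1.17 ± 0.32 (SE, limma adjusted p = 0.0041 and 0.011). The other, A_55_P2083233, which overlaps the Mup4 probe, was lower, by -1.82 ± 0.12 and -1.77 ± 0.12. The pseudogene 12 probe printed above, A_55_P2113587, changed by -1.12 ± 0.20 and -0.85 ± 0.20, and the equally close pseudogene 7 probe, A_55_P2033326, by -2.42 ± 0.22 and -2.18 ± 0.22. The probe with the largest fall, also for Mup pseudogene 12 (A_55_P1981197), changed by -4.34 ± 0.25 and -4.02 ± 0.25. Another probe for pseudogene 12, A_55_P2726423, went the other way, by 0.68 ± 0.27 and 0.56 ± 0.27 (SE, limma adjusted p = 0.077 and 0.16). In the mean of the labelled sexes it was higher, by 0.62 ± 0.19 (SE, limma adjusted p = 0.014). Probes named for other Mup genes covered a wide range. Mup19 changed by -0.20 ± 0.08 in labelled males (adjusted p = 0.071) and -0.30 ± 0.08 in labelled females (adjusted p = 0.0084, limma), Mup17 by -0.58 ± 0.13 and -0.68 ± 0.13, and Mup2 by -1.07 ± 0.20 in both. The Mup19 probe averaged a normalized log2 signal of 18.71 in labelled male controls, above the 18.64 of Mup20 A_55_P2063654. Whether its signal was still in proportion to the RNA was not tested. The 2 Mup11 probes changed by -2.16 ± 0.37 and -2.44 ± 0.36 in labelled males, and by -1.83 ± 0.37 and -2.23 ± 0.36 in labelled females. The 2 Mup6 probes changed by -2.32 ± 0.30 and -1.67 ± 0.19 in labelled males, and by -2.25 ± 0.30 and -1.42 ± 0.19 in labelled females. The Mup17 and Mup19 probes are listed against 3 genes each and the Mup2 probe against 2, so their values cannot be assigned to 1 gene. Mup6 A_52_P387467 is listed against 1 gene, and the other Mup6 probe and both Mup11 probes against none by RefSeq. Whether these probes also read related transcripts was not tested.

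A list drawn up for growth hormone signalling and Mup regulation gave 21 tested genes. Of these, 5 were higher and 1 lower in labelled males, where 22.2% of all tested probes passed. The counts were the same in labelled females, where 18.3% of all tested probes passed, with median log2 fold changes of -0.06 and -0.02. Cux2, a repressor of male-biased liver genes that female livers express, was higher in both labelled sexes (limma adjusted p = 3.7e-16 in labelled males and 1.5e-16 in labelled females). It was well above background on all labelled pesticide arrays, but on 2 of 6 labelled male control and 1 of 6 labelled female control arrays, so the fitted log2 differences of 4.36 and 4.58 are set mostly against background. Nr3c1, the glucocorticoid receptor, was higher by 0.31 ± 0.07 and 0.21 ± 0.07. Rsl1, a zinc finger protein, was higher by 0.35 ± 0.08 and 0.28 ± 0.08. Named after their values were seen, Igfals was higher by 0.47 ± 0.14 and 0.42 ± 0.14 and Foxa1 was lower, by -0.70 and -0.69. Stat5b, which carries the growth hormone signal and is also named after its values were seen, had differences of 0.18 (adjusted p = 0.38) and 0.37 (adjusted p = 0.057), and did not pass.

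Other genes with a known sex bias in mouse liver moved with the labelled diets. Over all tested probes, 10.7% were lower and 11.6% higher in labelled males, and 9.44% lower and 8.88% higher in labelled females. Of 20 male-biased genes outside the family, 18 were lower in labelled males and 16 lower and 1 higher in labelled females. Cyp4a12b, an arachidonic acid hydroxylase of male mice, was lower in labelled males by a fitted log2 difference of -9.21, with 1 of 6 labelled pesticide arrays well above background, and was at least 658-fold lower in labelled females, where it was well above background on no labelled pesticide array. Slco1a1, a bile salt and steroid transporter, was not well above background on any labelled pesticide array and was at least 141-fold lower in labelled males and 91.0-fold lower in labelled females. Of 20 female-biased genes, 19 were higher in each labelled sex. Sult2a2, a hydroxysteroid sulfotransferase, was not well above background on any labelled control array and was at least 2006-fold higher in labelled males and 1799-fold higher in labelled females.

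Genes that share the members' fold or secretory route were counted beside the same shares, 22.2% of all tested probes in labelled males and 18.3% in labelled females. Of 11 other liver lipocalins tested, 2 were higher in each labelled sex, Apom by 0.42 ± 0.12 and 0.69 ± 0.12, and Orm3 by 1.21 ± 0.42 and 1.27 ± 0.42. Of 15 other abundant secreted hepatocyte proteins, 1 was higher and 1 lower in labelled males, and 3 were higher and 1 lower in labelled females. The lower one in both was Serpina3k, a serine protease inhibitor, at -1.14 ± 0.20 and -1.02 ± 0.20, and Apoh was higher in both, by 0.29 ± 0.06 and 0.26 ± 0.06. Of 20 genes for signal peptide handling and entry into the endoplasmic reticulum, 1 was higher and 2 lower in labelled males, and 1 was higher and 6 lower in labelled females. Sec11c, a catalytic subunit of the signal peptidase, was lower in both, by -0.41 ± 0.08 and -0.49 ± 0.08. Of 10 glucose and lipid genes reported downstream of MUP1, 0 passed in labelled males (limma; 22.2% of all tested probes passed there) and 1 was higher in labelled females, Pck1, named after its values were seen, by 0.57 ± 0.21 (adjusted p = 0.043).

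Markers of cell types moved beside the members. Their counts stand beside 10.7% of all tested probes lower and 11.6% higher in labelled males, and 9.44% and 8.88% in labelled females. Of 6 hepatocyte markers 0 passed in either labelled sex (limma), and Alb differed by 0.01 and 0.02. The summed hepatocyte marker signal was 20.36 to 20.45 in labelled male pesticide livers, against 20.42 to 20.45 in labelled male controls (log2), and 20.36 to 20.46 in labelled female pesticide livers, against 20.39 to 20.42 in labelled female controls. All 7 Kupffer cell markers were higher in both labelled sexes, with median changes of 1.39 and 1.27. Their summed signal was 14.94 to 15.67 in labelled male pesticide livers, against 13.59 to 14.91 in labelled male controls, and 14.42 to 16.14 in labelled female pesticide livers, against 13.19 to 15.55 in labelled female controls. Of 7 sinusoidal endothelial markers 5 were higher in labelled males and 6 in labelled females, and of 6 stellate cell markers 5 and 3 were higher. Higher in labelled males and in labelled females were 4 and 0 of 5 B and plasma cell markers, 1 and 0 of 4 T and NK cell markers, and 3 and 3 of 4 neutrophil markers. Of 5 bile duct markers 0 passed in either (limma). Lower were 1 and 1 of 2 adipocyte markers, 1 and 0 of 3 exocrine pancreas markers, and 1 and 1 of 3 erythroid markers, of which 2 and 0 were higher. Of 9 markers of salivary, lachrymal and nasal glands, where some Mup genes are also read, 2 passed the background filter and 0 passed the test (limma). In a bulk liver sample, fewer cells of a type and less RNA per cell cannot be told apart, and the part of cell makeup in the members' changes was not tested.

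Genes with the pattern most like each member were ranked by Pearson r over the 24 arrays, for the brightest probe of each member, as a description. Mup3 A_52_P232508 was most like C8a (r = 0.972), Nox4 (0.971) and C8b (0.966). Mup5 was most like Pax2 (0.966), Cyp7b1 (0.952) and Slco1a1 (0.947). Mup20 A_55_P2051486 was most like Slco1a1 (0.951), Cyp4a12b (0.947) and Cyp2d9 (0.945). Pax2 led for Mup4 (0.921) and for Mup21 A_55_P2743972 (0.940) as well. The points share the split between labelled diets, which sets most of these values. With deviations from the 4 group means in place of levels, Pax2 still led for Mup4 (0.674), Mup5 (0.772) and Mup21 A_55_P2743972 (0.700), while Supt16 (0.750) led for Mup3 A_52_P232508 and Zdhhc14 (0.685) for Mup20 A_55_P2051486. The Mup20 probe A_55_P2063654, named here after its values were seen, was most like the Y-linked Eif2s3y over the 24 arrays (r = 0.995). With deviations from the group means, Magef1 (0.874) led for this probe in place of Eif2s3y.

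Promoters of 3 members are given because the members moved together and STAT5 is the family's known activator. RefSeq (GRCm38.p6) gave the 250 bases before the annotated start for Mup3, Mup4 and Mup21, all on the minus strand of chromosome 4, at chr4:62087318-62087567, chr4:59960668-59960917 and chr4:62150842-62151091. Those of Mup5 and Mup20 are named only. Capitals mark matches, on either strand, to the STAT5 element TTCNNNGAA and to TATATAA, which was searched after the letters were seen. They also mark matches to a variant with 4 bases in place of 3 between TTC and GAA.
Mup3 promoter: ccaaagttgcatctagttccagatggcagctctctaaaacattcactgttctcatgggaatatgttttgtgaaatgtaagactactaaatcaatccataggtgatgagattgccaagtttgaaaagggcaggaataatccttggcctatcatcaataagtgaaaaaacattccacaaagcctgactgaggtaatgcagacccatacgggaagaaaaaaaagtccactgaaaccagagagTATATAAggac
Mup4 promoter: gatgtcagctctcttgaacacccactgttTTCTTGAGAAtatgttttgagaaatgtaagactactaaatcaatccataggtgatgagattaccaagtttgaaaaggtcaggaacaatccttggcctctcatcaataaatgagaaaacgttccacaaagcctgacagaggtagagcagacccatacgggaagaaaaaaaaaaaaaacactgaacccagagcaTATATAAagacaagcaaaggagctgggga
Mup21 promoter: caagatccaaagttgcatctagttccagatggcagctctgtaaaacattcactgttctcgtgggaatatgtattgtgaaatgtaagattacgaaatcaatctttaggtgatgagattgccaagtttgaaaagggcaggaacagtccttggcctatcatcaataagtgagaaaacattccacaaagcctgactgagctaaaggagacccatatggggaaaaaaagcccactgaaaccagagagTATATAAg

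The Mup3 and Mup21 windows were 93.4% identical over 244 aligned bases, Mup3 and Mup4 88.6% over 229, and Mup4 and Mup21 84.8% over 223. TATATAA stood 11 bases before the start in Mup3, 29 in Mup4 and 8 in Mup21, and was found in 11 of 14 Mup promoters against 3.04% of 32851 promoters. The variant with 4 bases between TTC and GAA was found once, 221 bases before the start of Mup4, and in 5 of 14 Mup promoters against 5.85% of all. TTCNNNGAA was found in 0 of 14 Mup promoters and in 7.02% of all. No match overlapped another. A match describes the letters only.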

How the data were processed

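The members and gene lists were chosen with earlier results of these data known. The files deposited for each array give spot fluorescence intensity and quality marks (other numbers), from Agilent Feature Extraction 10.10.1.1 per the submitters' processing notes. A deposited table of the authors gives log2 values for 31532 probes. Per the labels, they filtered median signals (the filter is not given in the sources used here) and normalized them by quantiles. All 24 array files matched their own table column best.

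Here log2 median spot signals were used with no background subtraction. The 3671 control spots were left out, non-uniform outlier spots (0 to 9 per array) were set missing, replicate spots were averaged and 56605 probes quantile normalized. Testing required a mark of well above background on at least 4 of 6 arrays in 1 group, leaving 32078 probes. limma 3.58.1 (R 4.3.3) estimated the 4 group means jointly from the 24 arrays, with two-sided tests, Benjamini-Hochberg adjustment and a threshold of 0.05. The script was checked on simulated data.

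Arrays give no counts, and their number limits the precision. For folds written "at least", a probe not well above background in a group was given, on each array, no less than the lowest signal that was well above background. A list gene is its brightest tested probe; at most 4 per list are named, by the smallest p in the mean of the labelled sexes, unless a sentence says otherwise. Probe positions are mm9, per the file headers. Alternatives changed the background correction (normexp, offset 50), scaling (75th percentile of median or processed signal), filter, outlier spots, ties, blocks for slide and replicate number, the arrays fitted, the eBayes settings and the input (the deposited table), or left out each array. One gene of a list and one probe sequence are not reported here.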

Additional observations from a re-analysis of the deposited data

Results flagged for a closer look

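For Mup3 A_66_P133052, labelled female control replicate 2 had a normalized log2 signal of 8.7504, while the other 5 arrays of the group lay between 8.2506 and 8.4346. Its distance to the nearest array was 0.632 of the group's whole range, above Dixon's 95% critical value for 6 samples. It was 1 of 36 groups examined, and chance gives about 1 in 20.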

How the results depend on the processing

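No result reversed under the alternatives run. On slide 1 alone, with 2 arrays per group, 3 member probes passed in labelled males, 4 in labelled females and 3 in each comparison across the labelled sexes, and on slide 2 alone 5 passed in labelled females. Over all probes, slides 1, 2 and 3 alone gave 1052, 583 and 459 calls in labelled males, 1041, 319 and 346 in labelled females, 3499, 1525 and 1792 in their mean, 817, 597 and 389 for labelled female pesticide minus labelled male control, and 1153, 267 and 490 for labelled male pesticide minus labelled female control. Slide 1 alone gave 2 calls between labelled sexes on the pesticide diet. Fewer samples entered these fits. Leaving out 1 array gave 0 to 1 calls over all probes between the labelled sexes on the control diet and 0 to 1 on the pesticide diet. Outside the single slides, the calls lost were those of Mup3 A_66_P133052. In the mean of the labelled sexes its adjusted p was 0.075 with processed signal, 0.082 with no filter and 0.059 with the replicate block. In labelled male pesticide minus labelled female control it was 0.072 with only those arrays, and 0.051 to 0.068 without labelled male pesticide replicate 1 or 3 or labelled female control replicate 5 or 6. Without labelled male pesticide replicate 2 it passed in labelled males (0.29, adjusted p = 0.039). The causes were not tested. With the replicate block 8 members passed in each labelled sex and no other member call changed. The replicate block gave 8099 calls over all probes in labelled males (7131 without it) and 6751 in labelled females (5878). Arrays with the same number lie on the same slide, and the labels do not say what else a number shares. Of 36 same-numbered pairs of arrays 15 had a correlation of deviations over 0.1 (range -0.118 to 0.337), and 14 of 24 arrays correlated best with their own number. That is a hint from the data only, and the part of the shared slide in it was not tested. Mup3 A_66_P133052 was the dimmest member, nearest to background.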
